A study of Mus musculus with 6 samples.

Results

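The subject here is the set of 32 genes of fatty acid oxidation and ketogenesis, followed in the livers of Cugbp1 knockout and wild-type mice at day 3 of life. The members were chosen by name from pathway knowledge (regulators, carnitine shuttle, mitochondrial and peroxisomal oxidation, ketone bodies and genes known as PPARα targets), with cytochrome P450 genes left out. Earlier results of these data were known when the list was made. All 32 were found by gene name on the array, 31 under their current symbol and Eci1 under an older one, and 7 of them had more than 1 probe. A gene with several probes is given by the brightest of them over the 6 arrays. They are 32 of the 21627 named genes, and of the 30929 features in all, that passed the filter on dim signals. All 32 passed it, and 31 were detected on all 6 arrays.

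Cugbp1, now called Celf1, encodes an RNA-binding protein that acts on the splicing, decay and translation of its target transcripts. There were 3 arrays of Cugbp1 KO livers and 3 of wildtype livers, numbered 1 to 3 in each genotype, and each array carried Cy3-labelled total RNA. Strain, litter, feeding state and the deleted part of the gene are not given in the labels. The labels do not say whether the replicates are separate animals or litters, so the p-values cover only the variation among these 6 samples, part of which may be technical. With 3 arrays in each genotype, the number of arrays limits the precision.

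Fatty acid oxidation starts when a fatty acid, bound to coenzyme A, is passed into mitochondria by the carnitine shuttle and is then shortened there round by round. Peroxisomes shorten very long and branched chains first. In the liver much of the acetyl-CoA that results is turned into ketone bodies, and this route becomes active around birth, when the fat of milk replaces the glucose of the placenta as the main fuel. The nuclear receptor PPARα, encoded by Ppara, binds fatty acids and switches on many of these genes, among them Fgf21, a hormone that the liver releases in fasting and in suckling newborns.

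The arrays were first checked against their labels. Celf1 had a log2 signal of 9.02, 8.61 and 8.94 on knockout 1, 2 and 3, against 12.04, 11.84 and 11.78 on wild-type 1, 2 and 3. The genotypes did not overlap, and the difference of -3.03 ± 0.22 (log2 ± SE, n = 3 each) had adjusted p = 0.0556 by limma. It is not known whether the probe reads a stretch that the knockout lacks. The labels call the mice male, but the Y-linked Ddx3y lay at 10.67 and 10.66 on knockout 1 and wild-type 1 and from 1.09 to 1.88 on the other 4 arrays, while Xist was low on those same 2 arrays and lay from 10.05 to 10.82 elsewhere, so that in neither genotype was replicate 1 the same RNA as replicates 2 and 3. The tissue label held, since 9 of 10 listed hepatocyte markers were found on the array and all 9 were detected on all 6 arrays. All 15 skeletal muscle markers were detected on knockout 2, knockout 3 and wild-type 3, and 11 to 13 of them on the other arrays. They had a median log2 signal of 5.50, 11.19 and 13.53 on knockout 1, 2 and 3, against 4.96, 5.70 and 11.87 on wild-type 1, 2 and 3, and their summed linear signal ran from 2658 to 526900 in knockout, against 2468 to 113700 in wild type. The 14 exocrine pancreas markers had a median of 12.64 on knockout 2 and between 5.06 and 6.18 on the other arrays, with a summed signal of 10730 to 223100 in knockout, against 4658 to 12100 in wild type.

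In knockout liver no member passed the threshold of adjusted p 0.05, and 1 of the 32 had an unadjusted p under 0.05. Over all 30929 features 0.00323% passed adjusted p 0.05 and 2.98% had an unadjusted p under it, so the members' counts are near the background. The genotypes did not overlap on 1 member, Fgf21, or 3.12% of the 32, against 6.74% of all features. In knockout 22 members were higher and 10 lower, which is 68.8% higher against 49.6% of all features. The median difference over the members was 0.098 on the log2 scale (-0.0024 over all features), within a range of -4.35 for Fgf21 to 0.87 for Acot3. The smallest adjusted p was 1.00 by limma. A p of this size does not show that levels were alike. The 95% interval of the difference lay within 1 log2 unit on either side of 0 for 6 members only, Acadm, Acadvl, Acaa2, Decr1, Acaa1a and Fabp1, as the plot of differences with their intervals shows. The direction of the median rested on single arrays: it was -0.22 without knockout 2, with 12 of 32 members higher, and -0.16 without wild-type 3, with 10 of 32 higher. Of all features, 53% were higher without knockout 2 and 48.4% without wild-type 3. In bulk liver, fewer cells of a type and less RNA per cell cannot be told apart.

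**Figure D1:**
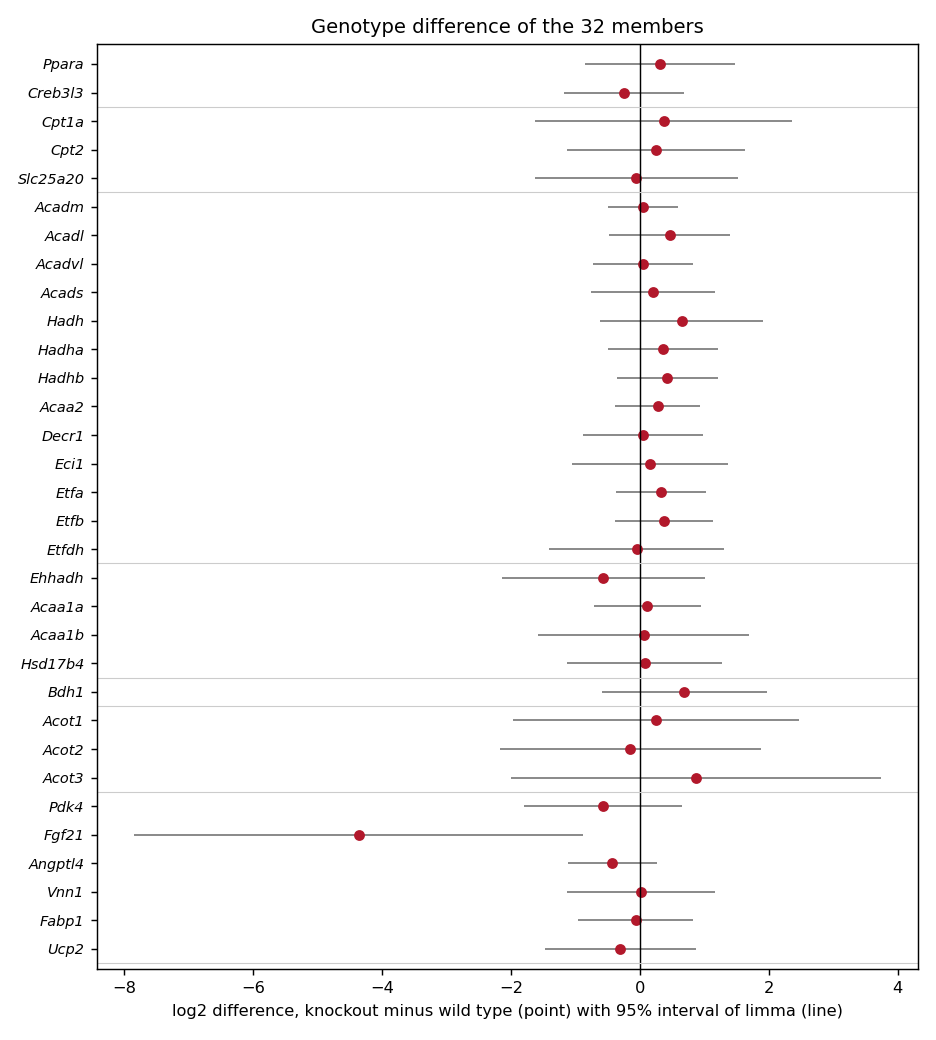
Log2 difference of each of the 32 members, knockout minus wild type (points), with the 95% interval of limma (lines, n = 3 arrays of each genotype), on a horizontal axis in log2 units and grouped by role from regulators at the top. Only the interval of Fgf21, from -7.84 to -0.87, does not reach 0, and no member passed adjusted p 0.05.

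Fgf21, the fasting and suckling hormone, was the member with the largest difference in either direction. Its log2 signal was 1.64, 7.02 and 1.20 on knockout 1, 2 and 3, against 7.90, 7.60 and 7.43 on wild-type 1, 2 and 3. The genotypes did not overlap, but knockout 2 was close to them and the other 2 were at the bottom of the signal range. The raw intensities behind these values were 2.52, 159.9 and 2.59 in knockout, against 226.6, 198.0 and 157.4 in wild type. The detection level was set on every array at the signal that 30% of its probes do not exceed, a log2 signal of 2.66 to 2.98, and Fgf21 was detected on 1 of 3 knockout arrays and on 3 of 3 wild-type arrays. Fgf21 averaged 3.29 ± 3.24 in knockout and 7.64 ± 0.24 in wild type (log2, SD, n = 3 each). The difference of -4.35 ± 1.46 (log2 ± SE) had an unadjusted p of 0.0214 and adjusted p = 1.00 by limma. The exact two-sided permutation test gave p = 0.1, the smallest that 3 arrays against 3 allow. Any gene whose genotypes do not overlap gets this p. Since Fgf21 was singled out by its large difference without overlap, the p of 0.1 is no test of it. The unadjusted limma p does not allow for that choice either.

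The size of this difference depended on how the dim values are treated. With the undetected arrays set at the detection level, the Fgf21 difference was -3.35 on the log2 scale, or 10.2-fold. Knockout 2 alone lay 0.62 under the wild-type mean, or 1.54-fold. Knockout 2 was also the array with the high pancreas markers. Without knockout 2, Fgf21 differed by -6.22 with adjusted p = 0.0318 by limma, and it was then the 1 feature of 30929 that passed. Knockout 2 was the only knockout array with detected Fgf21, so the small p follows from leaving it out and is no test. Fgf21 passed the filter on dim signals through the wild-type arrays only. The wild-type mean was at least 26.3-fold higher than the signal on knockout 1 and 3, a lower bound with both set at the detection level. Without knockout 1 or knockout 3 the difference was -3.53 or -3.31, and with either left out it did not pass. In same-numbered arrays Fgf21 differed by -6.26, -0.58 and -6.23 for replicates 1, 2 and 3, each pair being 1 array against 1. Replicate 1 is the only pair with Y-linked transcripts. Muscle markers were high on knockout 3 and low on knockout 1, both of which lacked detectable Fgf21. The part of sex, muscle or pancreas in the Fgf21 values was not tested. Of 15910 features with a log2 signal above 7 on all wild-type arrays, Fgf21 was the only 1 that was undetected on exactly 2 knockout arrays. The mirror image was seen for 0 features, out of a number that is not given. The level of 7 was chosen after the values were seen, and exactly 2 dim arrays is the pattern of Fgf21 itself. These counts are therefore a description and no test. Only 1 Fgf21 probe was on the array, and its quality flags are not among the data used here, so on knockout 1 and 3 a low level and a failed spot cannot be told apart.

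**Figure D2:**
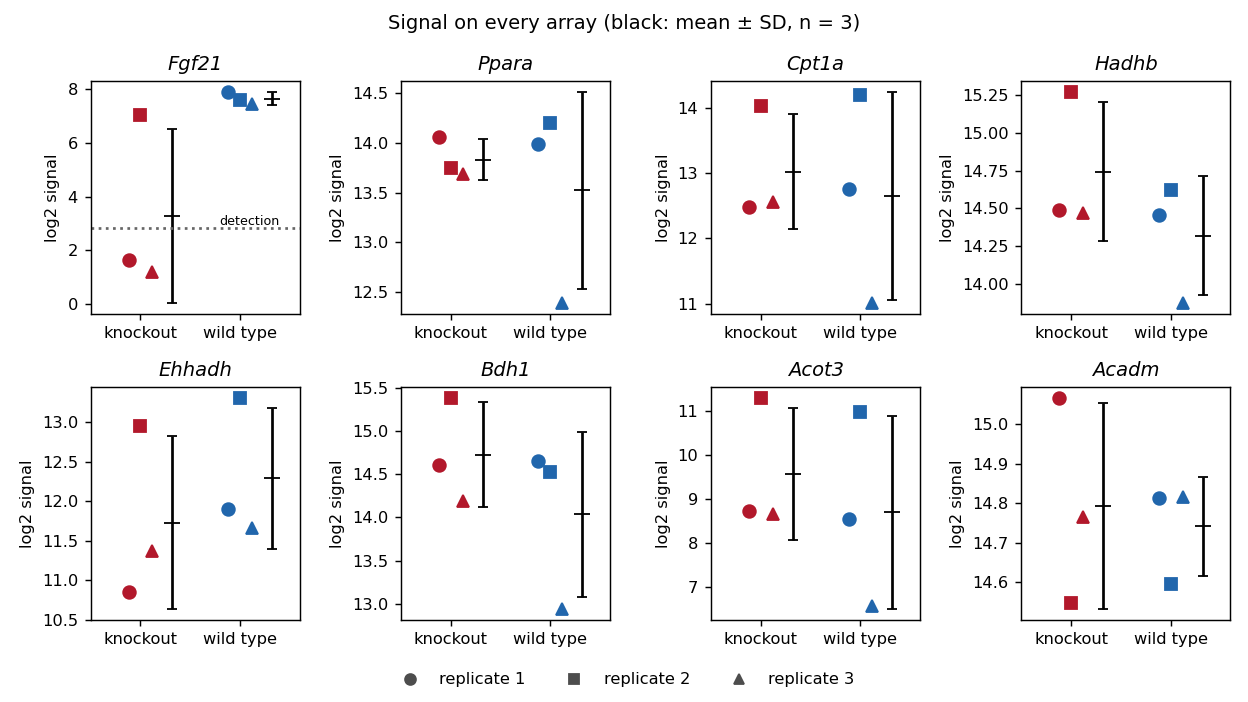
Log2 signal (vertical axes, each with its own range) of Fgf21, of the member with the smallest unadjusted p in each other role (Ppara, Cpt1a, Hadhb, Ehhadh, Bdh1, Acot3) and of Acadm, on 3 knockout arrays (red) and 3 wild-type arrays (blue), with symbols for replicate numbers, the mean ± SD in black and the mean detection level dotted in the Fgf21 panel. Fgf21 is at 1.64 and 1.20 on knockout 1 and 3, and in both genotypes the replicate 2 arrays (squares) are highest for Cpt1a, Ehhadh and Acot3.

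The regulators were not called. Ppara lay at 14.06, 13.75 and 13.69 on knockout 1, 2 and 3, against 13.99, 14.20 and 12.39 on wild-type 1, 2 and 3. On this brightest Ppara probe only wild-type 3 stood apart, below the other 5 arrays. A further Ppara probe was also lowest on wild-type 3, at 9.57. The remaining probe was not, with 11.76, 11.56 and 11.67 on wild-type 1, 2 and 3. The Ppara difference was 0.31 ± 0.49 (log2 ± SE), and further Ppara probes differed by 0.64 and -0.11, so that its 3 probes did not share a sign. Without wild-type 3 the difference was -0.26. Creb3l3, which encodes a liver transcription factor held in the endoplasmic reticulum that acts with PPARα on Fgf21, lay at 13.91, 15.13 and 14.17 in knockout, against 14.32, 15.12 and 14.51 in wild type. The groups overlapped on Creb3l3, and replicate 2 was the highest in both.

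The 3 genes of the carnitine shuttle varied more within genotypes than between them. Cpt1a, the outer-membrane carnitine palmitoyltransferase and the gatekeeper of mitochondrial oxidation, lay at 12.47, 14.03 and 12.56 on knockout 1, 2 and 3, against 12.75, 14.20 and 11.01 on wild-type 1, 2 and 3. Knockout 2 and wild-type 2 were high, wild-type 3 was low, and the genotype difference of 0.37 ± 0.83 (log2 ± SE) was small beside the gap of 3.19 between wild-type 2 and wild-type 3. A further Cpt1a probe differed by 0.10 between genotypes. Cpt2, the inner-membrane transferase that releases the acyl group, averaged 13.06 ± 0.82 in knockout and 12.81 ± 0.92 in wild type (log2, SD). Slc25a20, the carnitine-acylcarnitine carrier, lay at 8.87, 11.23 and 9.64 in knockout, against 9.48, 10.83 and 9.58 in wild type. Replicate 2 was again the highest of each genotype for both genes.

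Of the 13 genes of the mitochondrial spiral and of electron transfer, 12 were higher in knockout and Etfdh was lower, with a median of 0.28 on the log2 scale and 0 members called. Single arrays carried much of this, since 8 of the 13 were higher without knockout 2, with a median of 0.12, and 8 without wild-type 3, with a median of 0.088. The differences were small, from -0.05 to 0.65. Hadhb, the thiolase subunit of the mitochondrial trifunctional protein, had the smallest unadjusted p of the 13, at 0.237. It lay at 14.49, 15.27 and 14.47 on knockout 1, 2 and 3, against 14.46, 14.62 and 13.87 on wild-type 1, 2 and 3, so that the groups overlapped and the high array was knockout 2. The Hadhb difference was 0.43 ± 0.33 (log2 ± SE). Its partner subunit Hadha averaged 10.97 ± 0.50 in knockout and 10.61 ± 0.47 in wild type (log2, SD).

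Among the acyl-CoA dehydrogenases, which take the first step of each round, Acadm (medium chain) was the steadiest. It lay at 15.07, 14.55 and 14.76 in knockout, against 14.81, 14.60 and 14.82 in wild type, and its 95% interval of -0.49 to 0.60 was the narrowest of all members. Unlike most members it was lowest on replicate 2 in both genotypes. Acadl (long chain) averaged 12.58 ± 0.57 in knockout and 12.11 ± 0.52 in wild type, Acadvl (very long chain) 15.34 ± 0.55 and 15.29 ± 0.24, and Acads (short chain) 10.38 ± 0.54 and 10.18 ± 0.58. Acadl was higher on knockout 2 than on any other array.

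Hadh, the dehydrogenase for medium and short chains, had the largest difference of the 13, at 0.65 ± 0.53 (log2 ± SE). It lay at 14.53, 14.08 and 13.42 on knockout 1, 2 and 3, against 14.17, 13.64 and 12.29 on wild-type 1, 2 and 3. Each knockout array was above the wild-type array of the same number while the groups overlapped, and without wild-type 3 the Hadh difference was 0.11. Acaa2, the mitochondrial thiolase, averaged 16.79 ± 0.16 in knockout and 16.51 ± 0.43 in wild type. Decr1 and Eci1, which handle unsaturated chains, averaged 14.83 ± 0.74 and 13.42 ± 0.94 in knockout, against 14.78 ± 0.21 and 13.26 ± 0.47 in wild type. The further Decr1 probe differed by 0.68, where the representing probe differed by 0.05.

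The electron-transfer genes carry electrons from the dehydrogenases to the respiratory chain. Etfa and Etfb, the subunits of electron-transferring flavoprotein, averaged 14.72 ± 0.43 and 16.00 ± 0.41 in knockout, against 14.39 ± 0.27 and 15.63 ± 0.41 in wild type. Etfdh, the oxidoreductase that accepts electrons from that flavoprotein, lay at 12.74, 14.60 and 13.39 in knockout, against 13.43, 14.45 and 12.99 in wild type. Its replicate 2 arrays were the highest in both genotypes, and its difference of -0.05 ± 0.57 (log2 ± SE) was the only negative one of the 13.

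The 4 peroxisomal genes gave 3 small positive differences and 1 negative. Ehhadh, the bifunctional enzyme of the inducible peroxisomal pathway, lay at 10.85, 12.96 and 11.38 on knockout 1, 2 and 3, against 11.91, 13.31 and 11.66 on wild-type 1, 2 and 3. Each knockout array was below the wild-type array of its number, with differences of -1.06, -0.36 and -0.28 on the log2 scale, although the groups overlapped and the difference was -0.56 ± 0.66 (log2 ± SE), or -0.054 without wild-type 2. Hsd17b4, the second bifunctional enzyme, which also serves branched chains, averaged 13.43 ± 0.70 in knockout and 13.35 ± 0.78 in wild type. The thiolases Acaa1a and Acaa1b averaged 14.85 ± 0.60 and 11.57 ± 0.77 in knockout, against 14.73 ± 0.26 and 11.51 ± 1.27 in wild type. On all 4 genes knockout 2 was the highest knockout array and wild-type 2 the highest wild-type array.

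Bdh1, which interconverts the ketone bodies acetoacetate and 3-hydroxybutyrate in mitochondria, was the only member of that step. It lay at 14.61, 15.38 and 14.19 on knockout 1, 2 and 3, against 14.65, 14.52 and 12.94 on wild-type 1, 2 and 3. Knockout 2 was above and wild-type 3 below the other 4 arrays. The difference was 0.69 ± 0.54 (log2 ± SE, unadjusted p of 0.242), and the further Bdh1 probes differed by 0.84 and 0.74 in the same direction. These probes were read on the same arrays, and without wild-type 3 the Bdh1 difference was 0.14.

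The acyl-CoA thioesterases, which free fatty acids from coenzyme A, had the widest spread. Acot1 is cytosolic, Acot2 mitochondrial and Acot3 peroxisomal, and Acot3 lay at 8.72, 11.30 and 8.66 on knockout 1, 2 and 3, against 8.53, 10.97 and 6.57 on wild-type 1, 2 and 3. Acot1 lay at 10.94, 12.82 and 11.45 in knockout, against 11.05, 13.45 and 9.95 in wild type. Acot2 lay at 5.41, 8.41 and 6.68 in knockout, against 5.80, 7.90 and 7.25 in wild type. On all 3 genes replicate 2 was the highest array of both genotypes, and the gap from wild-type 2 to wild-type 3 reached 4.40 for Acot3 and 3.50 for Acot1. The Acot3 difference between genotypes, 0.87 ± 1.20 (log2 ± SE), was the largest positive one of all members and was smaller than its SE. The Acot genes are close relatives, as are Acaa1a and Acaa1b. Probe letters were not used here, so whether a probe also takes up RNA of a relative is unknown.

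The remaining members are known as PPARα targets or as genes that respond to fasting, and 5 of the 6 were lower in knockout, with a median of -0.37 on the log2 scale. Besides Fgf21 none had an unadjusted p under 0.05. Pdk4, the kinase that spares glucose by shutting pyruvate dehydrogenase, lay at 10.91, 11.18 and 11.29 on knockout 1, 2 and 3, against 10.59, 11.80 and 12.70 on wild-type 1, 2 and 3. Without that last array the Pdk4 difference was -0.067, where it was -0.57 with it. It was highest on wild-type 3, the array on which most of the oxidation enzymes were lowest. Angptl4, a secreted inhibitor of lipoprotein lipase, lay at 14.16, 14.42 and 14.08 in knockout, against 14.12, 14.95 and 14.88 in wild type. Its difference of -0.43 ± 0.29 (log2 ± SE) had an unadjusted p of 0.183. Fabp1, the liver fatty acid-binding protein, averaged 17.01 ± 0.64 in knockout and 17.08 ± 0.33 in wild type. Vnn1, a pantetheinase, averaged 8.34 ± 0.42 and 8.32 ± 0.90. Ucp2, a mitochondrial carrier that blood cells and macrophages express strongly, lay at 12.05, 10.21 and 11.83 in knockout, against 11.45, 11.77 and 11.78 in wild type. Ucp2 was low on knockout 2 alone, where the median erythroid marker also stood lower, at 10.25, than on the other arrays, from 11.69 to 11.99, with all 10 detected on every array and a summed signal of 310700 there, against 723500 to 879800 elsewhere. As a list, the 7 macrophage markers were not low on knockout 2, and all were detected on every array. Their median log2 signal was 12.53 on knockout 2, against 11.71 to 12.64 on the other arrays. Their summed signal of 99620 on knockout 2 was the highest of the 6 arrays, against 45860 to 92220 on the others. The part of blood cells in this value was not tested.

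What most members shared was a pattern across single arrays rather than between genotypes. Knockout 2 was the highest knockout array for 27 of 32 members (84.4%), against 36.9% of all features. Wild-type 2 was the highest wild-type array for 21 of 32 (65.6%), against 32.1% of all features, and wild-type 3 was the lowest for 24 of 32 (75%), against 39.6%. Relative to each gene's wild-type mean, the median member stood at -0.23, 0.82 and -0.20 on knockout 1, 2 and 3, against 0.09, 0.36 and -0.49 on wild-type 1, 2 and 3 (log2). For all features these medians lay between -0.034 and 0.083. The thioesterases went farthest, with medians of 1.43 on knockout 2, against 1.97 on wild-type 2 and -1.54 on wild-type 3, while the carnitine shuttle stood at 1.27, 0.95 and -0.89 and Bdh1 at 1.35, 0.49 and -1.10 on the same arrays. The 6 other genes known as PPARα targets or as fasting-responsive showed less of it. Their medians were -0.41, -0.37 and -0.48 on knockout 1, 2 and 3, against 0.02, 0.10 and -0.05 on wild-type 1, 2 and 3. Wild-type 2 was the highest wild-type array for 1 of these 6 and wild-type 3 the lowest for 3. Knockout 2 was the highest knockout array for 4 of them. The median SD within a genotype was 0.718 for the members and 0.389 for all features, which include dimmer ones. These counts are a description, without a test, since the members share their arrays.

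**Figure D3:**
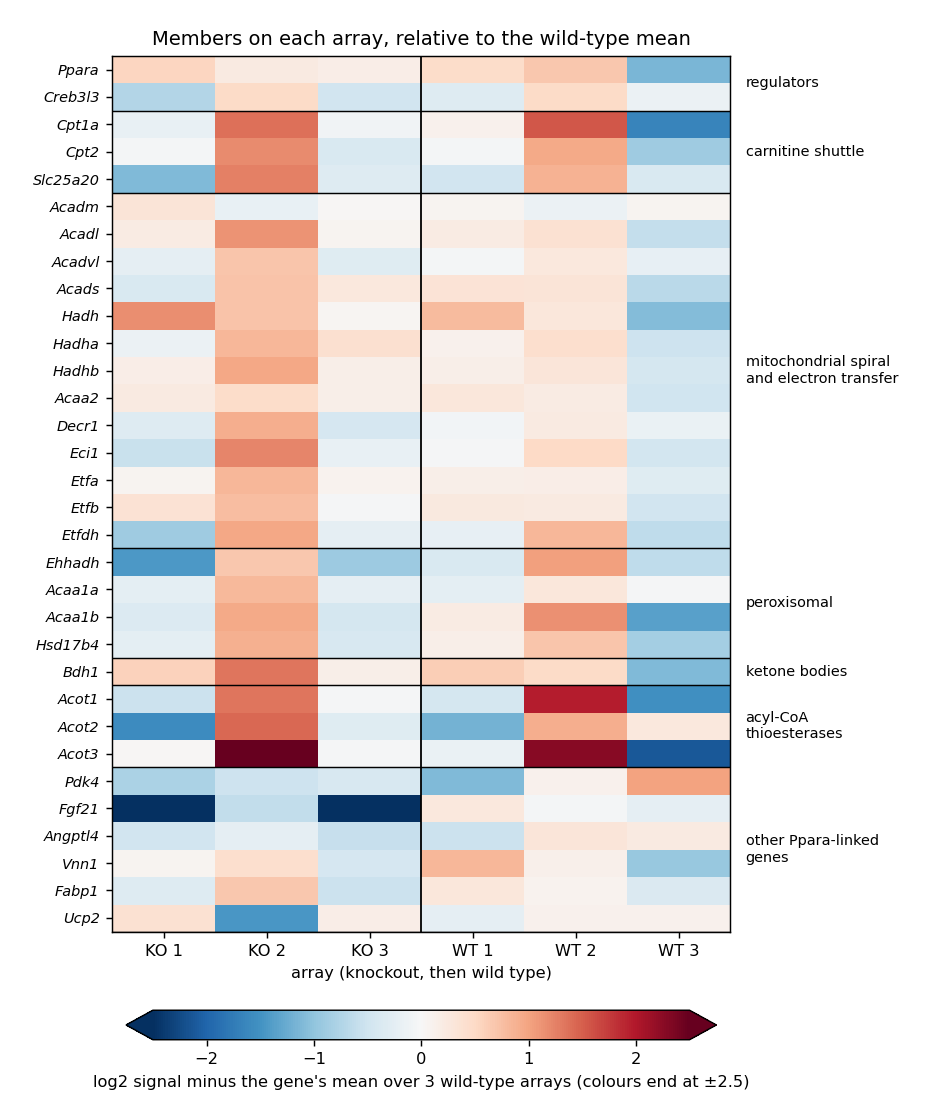
Log2 signal of each member on each array minus that gene's mean over the 3 wild-type arrays, as colour (red above, blue below, ending at 2.5 log2 units), with knockout arrays left of the black line and roles separated by horizontal lines. Knockout 2 and wild-type 2 are red in most rows of the carnitine shuttle, peroxisomal and thioesterase genes, wild-type 3 is blue in most rows, and Fgf21 is darkest on knockout 1 and 3.

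Muscle markers were high on knockout 2, knockout 3 and wild-type 3, on which the median member stood at 0.82, -0.20 and -0.49. Pancreas markers were high on knockout 2 alone, where erythroid markers were low. The median hepatocyte marker stood at 18.37, 18.07 and 18.21 on knockout 1, 2 and 3, against 18.42, 18.63 and 18.55 on wild-type 1, 2 and 3, so that knockout 2 was the lowest there too. The part of these tissues and cells in the members' values was not tested. With knockout 2 and wild-type 3 both left out, a choice made after the values were seen, the median difference of the members was -0.43. There 3 of 32 were higher (9.38%), against 50.9% of all features, and 0 features passed. Since these are the arrays on which most members were high or low, a fall of the median follows from leaving them out and is no test. With knockout 1, wild-type 1 and wild-type 2 alone, likewise chosen afterwards as the arrays without high muscle markers, the median was -0.41. There 5 of 32 were higher (15.6%), against 56.6% of all features, in a subset that leaves out the same 2 arrays. In that subset the lone knockout array was assumed to vary like the others.

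The replicate number of the labels went with part of this variation. After removal of the genotype means, arrays of the same number correlated across all features at 0.36, 0.26 and 0.30 for replicates 1, 2 and 3. Within same-numbered pairs, 11, 22 and 21 of the 32 members were higher in knockout for replicates 1, 2 and 3, with median differences of -0.15, 0.31 and 0.42 (log2). The shares were 34.4%, 68.8% and 65.6% of members, against 56.7%, 48.4% and 49.3% of all features. Replicate 1 is the pair with Y-linked transcripts and without high muscle or pancreas markers, and 4 of its 13 mitochondrial genes were higher in knockout, against 12 in replicate 2 and 10 in replicate 3. Only 7 members kept their sign in all 3 pairs (21.9%, against 23.6% of all features). Cpt2, Hadh, Hadhb, Etfb and Acot3 were higher in all 3, and Ehhadh and Fgf21 lower. With the replicate number as a block, no member and 0 features passed adjusted p 0.05 by limma, and 1577 features had an unadjusted p under 0.05, where 923 had one without the block.

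**Figure D4:**
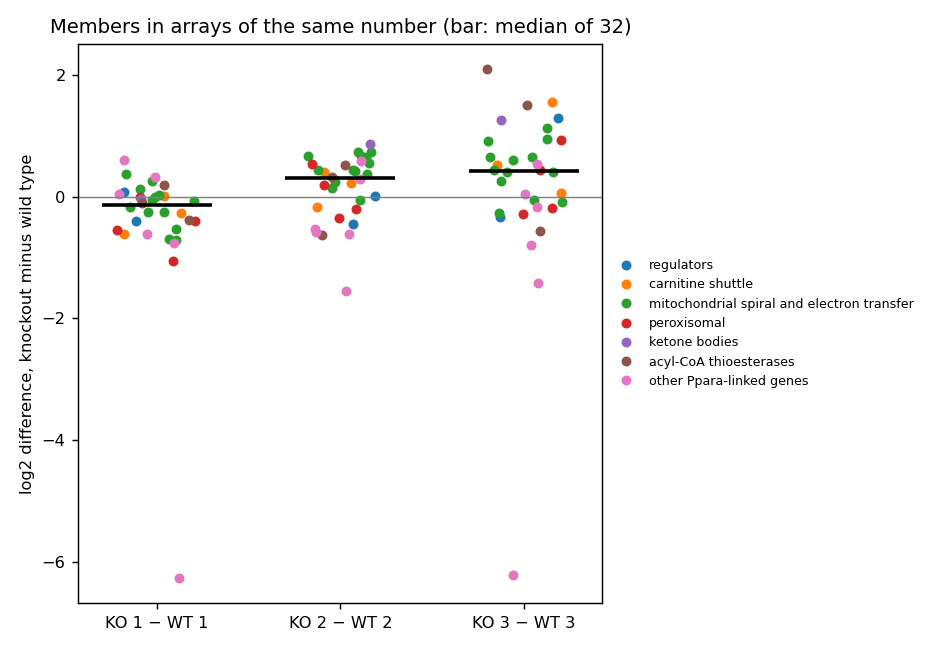
Log2 difference of each member between the knockout and the wild-type array of the same replicate number (points, coloured by role, spread sideways for legibility), with the median of the 32 members as a black bar. The bars lie at -0.15, 0.31 and 0.42, and the 2 lowest points, near -6, are Fgf21 in replicates 1 and 3.

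The promoters of the members were searched for the element that PPARα binds together with its partner RXR, because many of these genes are known as its targets. The search was made after the pattern across arrays was seen. The part of PPARα in that pattern was not tested. The motif was AGGTCANAGGTCA, a repeat of AGGTCA with 1 free base between the copies, on either strand and with up to 2 of its 12 fixed letters changed. Windows ran from 250 bases before to 50 after each gene's start, from RefSeq on GRCm38.p6. Member windows on 1 chromosome were left out, while the counts over all genes and windows kept it. After this, 27 of the 32 members had a window, and Decr1, Acaa2, Hsd17b4, Angptl4 and Vnn1 had none. Which of these were lost in that step is not given. The motif was found for 4 members (14.8% of 27), against 4.40% of 27025 genes and 3.86% of 32851 windows. Creb3l3 had the motif in 1 window, while the closest run in a further Creb3l3 window differed at 4 letters. Fabp1 differed from the motif at 1 letter and Creb3l3, Etfa and Slc25a20 at 2. These sites and 10 bases on either side are shown with the site in capitals, 5′ to 3′ along the gene's strand. For Fgf21, the member with the largest difference, the closest run is in capitals although 4 of its letters differ, so that it is no match:
Fabp1: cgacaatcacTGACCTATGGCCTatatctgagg
Creb3l3: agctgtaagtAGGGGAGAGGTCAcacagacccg
Etfa: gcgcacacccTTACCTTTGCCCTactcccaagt
Slc25a20: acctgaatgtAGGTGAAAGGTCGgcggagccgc
Fgf21: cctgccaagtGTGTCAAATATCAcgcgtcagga

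The Fabp1 and Etfa sites read on the opposite strand, as a repeat of the complement, and those of Creb3l3 and Slc25a20 along the gene. With the start base as 0, the sites began at -67 in Fabp1, -209 in Creb3l3, -77 in Etfa and 6 in Slc25a20, inside the transcribed part. The whole windows of Fabp1 (chr6:71199629-71199928, plus strand) and Fgf21 (chr7:45615441-45615740, minus strand) are shown as the closest match among the members with a window and as the member with the largest difference, with the same runs in capitals:
Fabp1: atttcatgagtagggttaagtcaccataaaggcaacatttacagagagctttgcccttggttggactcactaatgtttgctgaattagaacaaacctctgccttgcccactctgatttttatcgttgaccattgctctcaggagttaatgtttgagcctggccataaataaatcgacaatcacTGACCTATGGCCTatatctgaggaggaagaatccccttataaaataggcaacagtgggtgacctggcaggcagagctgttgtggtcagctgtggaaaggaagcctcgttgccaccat
Fgf21: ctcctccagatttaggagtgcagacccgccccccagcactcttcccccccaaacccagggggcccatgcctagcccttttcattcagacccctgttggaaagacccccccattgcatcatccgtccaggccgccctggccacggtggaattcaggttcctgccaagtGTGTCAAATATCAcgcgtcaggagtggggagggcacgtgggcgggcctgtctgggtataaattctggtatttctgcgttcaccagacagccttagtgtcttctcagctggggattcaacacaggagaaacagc

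The members with a site did not share a direction between genotypes. Fabp1 differed by -0.07, Creb3l3 by -0.24, Etfa by 0.33 and Slc25a20 by -0.05 on the log2 scale. On replicate 2 they stood above the mean of the other 2 arrays of their genotype by 1.10, 1.09, 0.75 and 1.98 in knockout, against 0.12, 0.70, 0.25 and 1.30 in wild type. The 23 members whose window lacked the motif stood from -1.73 to 5.60 in knockout, with a median of 0.99, against -0.22 to 3.42 in wild type, with a median of 0.62, so that the ranges of members with and without it overlapped. A match is a run of letters and not a shown binding site, and a window without one says nothing of sites elsewhere.

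Of 66 other genes of the pathway, 0 passed adjusted p 0.05 and 0 had an unadjusted p under it. Over all features these shares were 0.00323% and 2.98%. In knockout 41 were higher and 25 lower, with a median of 0.072 (log2). This is 62.1% higher, against 49.6% of all features. The genotypes did not overlap on 1 of the 66 (1.52%), against 6.74% of all features. It was Hsd17b10, a mitochondrial dehydrogenase, which lay at 14.45, 15.17 and 14.58 in knockout, against 14.33, 14.21 and 14.41 in wild type. Acsm5, a medium-chain acyl-CoA synthetase, had the smallest unadjusted p of the 66, at 0.0764, with a difference of 1.18 ± 0.56 (log2 ± SE), and Pecr, a peroxisomal enoyl-CoA reductase, differed by 1.07 ± 0.64. Among lower genes, Plin5, a lipid-droplet protein that links droplets to mitochondria, lay at 12.88, 13.70 and 13.12 in knockout, against 13.29, 14.87 and 14.11 in wild type, a difference of -0.86 ± 0.44. Esrra, an orphan nuclear receptor that drives mitochondrial genes, differed by -0.57 ± 0.34. Rxra, the partner of PPARα, differed by -1.37 ± 1.13, and this came from wild-type 3 alone, at 11.34, where the other 5 arrays lay from 6.60 to 7.55. The 6 further ketone body genes split evenly, 3 higher and 3 lower, between -0.16 and 0.74. Over the 66, knockout 2 was the highest knockout array for 60.6%, wild-type 2 the highest wild-type array for 47.0% and wild-type 3 the lowest for 54.5%. For all features these shares were 36.9%, 32.1% and 39.6%. Wild-type 3 was the lowest for 15 of 17 peroxisomal, 9 of 13 uptake, 9 of 17 mitochondrial, 2 of 9 co-regulator, 1 of 6 ketone body and 0 of 4 lipolysis genes.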

How the data were processed

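Total RNA of 3 Cugbp1 knockout and 3 wild-type livers was hybridised to 1-colour Agilent arrays, and the submitters' processing notes name Agilent Feature Extraction. The intensity table deposited by the authors is linear and holds 55681 probes, with 91 empty cells and none of them on a probe that stands for a member. They also deposited a log2 table, which equals the quantile-normalized, median-centred intensities within 0.01 for at least 99.96% of probes on every array. The 75th percentiles of the raw signal ran from 350.2 to 534.8.

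Each array was scaled to a common 75th percentile, and values were floored at 1 and put on the log2 scale. Features above the 30th percentile of the array on all 3 arrays of a genotype were kept. Knockout was compared with wild type by limma 3.58.1 in R 4.3.3 (two-sided, no covariates, Benjamini-Hochberg over all features). The fit was tested on simulated data. This main comparison was unpaired, and its differences, SEs, intervals and p-values ignore the replicate number. Only in the differences within pairs and in the block were same-numbered arrays taken as paired. The reason was that their deviations correlate in all 3 pairs, not that the labels say so. All members are reported, with values on every array for the member of smallest p in each role and for non-overlapping ones, and 66 other pathway genes by the 3 of smallest p in each direction. Members and lists were chosen with earlier results of these data known. Some genes of the pathway are not reported here. Alternatives were another scaling, filter or probe rule, array weights, the block and leaving out arrays.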

Additional observations from a re-analysis of the deposited data

How the results depend on the processing

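Over 14 alternative settings no member passed adjusted p 0.05 by limma except Fgf21 without knockout 2, so that count ran from 0 to 1 when arrays were left out. Features past the threshold numbered 1, but 2 with median scaling, 0 without a filter on dim probes, 2 with the stricter filter, 0 with the replicate block, 11 with array weights, 0 in both array subsets chosen after seeing the data, and 0 to 1 with single arrays left out. The number of members higher in knockout was 8 with array weights, 3 and 5 in the array subsets, and 10 to 25 with single arrays left out. Of all features, 46.1% were higher with array weights, 50.9% and 56.6% in the subsets, and 46.7% to 53% with single arrays left out. The median difference was -0.24 with array weights and -0.43 without knockout 2 and wild-type 3. Array weights were 0.439 for knockout 2 and 0.466 for wild-type 3, against 4.24 for knockout 3. Celf1 passed with median scaling (adjusted p = 0.0399), the stricter filter (0.0202) and array weights (0.00853), all by limma, and in no other setting. Over all settings adjusted p for Fgf21 ran from 0.0318 to 1.00.

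The 9 members Acadl, Hadha, Hadhb, Acaa2, Etfa, Ehhadh, Pdk4, Fgf21 and Angptl4, kept their sign in all 14, but the values nearest 0 were 0.0029 for Acadl, 0.028 for Acaa2, 0.063 for Etfa, 0.10 for Hadha, 0.098 for Hadhb, -0.054 for Ehhadh, -0.067 for Pdk4, -0.28 for Angptl4 and -3.31 for Fgf21. Signs turned with array weights for Ppara (-0.12), Cpt1a (-0.40), Cpt2 (-0.43), Acadvl (-0.26), Hadh (-0.11), Decr1 (-0.34), Eci1 (-0.22), Etfb (-0.062), Acaa1a (-0.12), Acaa1b (-0.67), Hsd17b4 (-0.50), Bdh1 (-0.032), Acot1 (-0.32), Acot3 (-0.32), Vnn1 (-0.61) and Ucp2 (0.10), and for Fabp1 with quantile normalization (0.17) and the deposited log2 values (0.17). With single arrays left out, the differences ran from -0.26 to 0.64 for Ppara, -0.60 to 0.0051 for Creb3l3, -0.45 to 1.14 for Cpt1a, -0.21 to 0.73 for Cpt2, -0.71 to 0.47 for Slc25a20, -0.0855 to 0.17 for Acadm, -0.26 to 0.23 for Acadvl, -0.14 to 0.49 for Acads, 0.11 to 1.05 for Hadh, 0.14 to 0.99 for Bdh1, -0.37 to 0.29 for Decr1, -0.38 to 0.52 for Eci1, -0.56 to 0.37 for Etfdh, -0.23 to 0.30 for Acaa1a, -0.62 to 0.63 for Acaa1b, -0.34 to 0.42 for Hsd17b4, -0.52 to 1.24 for Acot1, -0.94 to 0.57 for Acot2, -0.19 to 2.01 for Acot3, -0.45 to 0.44 for Vnn1, -0.43 to 0.17 for Fabp1 and -0.64 to 0.27 for Ucp2. The cause was not tested.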

Other observations

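Cidec, a lipid-droplet protein listed with the white fat markers, was chosen after its values were seen because, like the thioesterases, it was highest on replicate 2. Its log2 signal was 2.09, 8.44 and 4.96 on knockout 1, 2 and 3, against 4.93, 10.25 and 6.44 on wild-type 1, 2 and 3. Each knockout array was below the wild-type array of its number, and replicate 2 was the highest in both genotypes. Of the other white fat markers, Adipoq and Plin1 lay between 1.73 and 3.59 on all 6 arrays, near the detection level. Lep lay between 3.03 and 4.07, above that level on every array. Cidec on knockout 1 was under that level. The part of fat cells in these values was not tested.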
